A study of Mus musculus with 24 samples.

Results

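The genes described here are 36 nuclear genes whose proteins form the last steps of the mitochondrial respiratory chain: 9 subunits of complex III, the electron carrier cytochrome c (Cycs), 11 subunits of complex IV and 15 subunits of ATP synthase. They were taken by name from a fixed list after the Ensembl identifiers of the deposited table had been given mouse symbols from GENCODE M21 on GRCm38. All 36 were in the table and all 36 passed the minimum of a mean of 10 normalised reads, among 16825 genes that passed it and 18240 genes in the table. Bulk RNA was sequenced from the prefrontal cortex of C57BL/6J mice on postnatal day 40, in both sexes. Mice were wild type (WT) or heterozygous for the I48X allele of Dyrk1a (Dyrk1a+/I48X, HT), a gene for a protein kinase. The 4 arms were WT on vehicle, HT on vehicle, HT on fluoxetine, an inhibitor of serotonin reuptake, and HT on lithium, a salt used as a mood stabiliser. Each arm held 6 libraries, 3 from females and 3 from males, and no WT group on a drug is analysed here, so the drug effects below are effects in HT mice. Neither doses nor durations of treatment are known from the labels. Whether the libraries come from separate animals is likewise not stated, so the p-values below measure the spread between libraries, part of which may be technical.

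Complex III takes electrons from ubiquinol and passes them to cytochrome c, complex IV passes them from cytochrome c to oxygen, and both move protons across the inner mitochondrial membrane. ATP synthase lets these protons flow back through a turning ring and makes ATP. Neurons rely on this chain for most of the ATP that ion pumping and synaptic transmission use. The nuclear genes of the complexes lie on many chromosomes and must be matched to the few core subunits that the mitochondrial genome encodes, and the transcription factors NRF1, GABP (of the ETS family) and YY1 are known regulators of many of them.

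The 36 genes lay on 18 chromosomes, and 29 of them had a promoter window in the RefSeq table used here (GRCm38.p6, 250 bases before to 50 bases after the gene's start). The windows were searched on both strands for 3 sequences of 8 bases. The NRF1 core CGCATGCG was in 8 of the 29 windows (27.6%) and in 2.06% of the 26994 genes with a window. The ETS core CCGGAAGT was in 4 of the 29 (13.8%) and in 4.31% of all genes, and the YY1 core AAGATGGC was in 3 (10.3%) and in 3.18% of all genes. The NRF1 core was in the windows of Uqcrc1, Uqcr11, Cycs, Cox6a1, Atp5g2, Atp5j, Atp5k and Atp5l, the ETS core in those of Uqcrh, Uqcr11, Cox8a and Atp5h, and the YY1 core in those of Atp5f1, Atp5j and Atp5j2. Shorter forms inside these cores were commoner: GCATGC was in 10 windows (34.5%) and in 8.93% of all genes, CGGAAG in 17 (58.6%) and in 18.8%, and AAGATGG in 4 (13.8%) and in 7.28%. The median GC content was 56.3% in the windows of the 29 genes and 52.7% over all genes. A match of letters is a description of the window and not a site of binding.

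Windows are shown for 6 genes, 5 of them with groups that did not overlap in a comparison below (Uqcrh, Cox7b, Atp5e, Atp5l) or with a pair of core matches (Uqcr11), and Cycs as the carrier between complexes III and IV. Not shown are Atp5j2, which also had groups without overlap, and Atp5j and Cox8a, which also held 2 core matches. Each runs 5′ to 3′ on the gene's strand, from 250 bases before the RefSeq start to 30 bases after it, and capitals mark the core matches. The Uqcrh window is chr4:116075041-116075320 on the minus strand, the Uqcr11 window chr10:80406792-80407071 on the minus strand and the Cycs window chr6:50566540-50566819 on the minus strand. The Cox7b window is chrX:106015450-106015729 on the plus strand, the Atp5e window chr2:174464072-174464351 on the minus strand and the Atp5l window chr9:44920713-44920992 on the minus strand.
Uqcrh: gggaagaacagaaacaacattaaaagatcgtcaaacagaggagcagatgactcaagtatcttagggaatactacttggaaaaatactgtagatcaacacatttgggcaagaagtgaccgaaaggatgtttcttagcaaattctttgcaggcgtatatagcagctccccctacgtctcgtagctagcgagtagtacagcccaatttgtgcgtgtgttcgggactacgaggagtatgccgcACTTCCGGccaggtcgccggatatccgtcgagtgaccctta
Uqcr11: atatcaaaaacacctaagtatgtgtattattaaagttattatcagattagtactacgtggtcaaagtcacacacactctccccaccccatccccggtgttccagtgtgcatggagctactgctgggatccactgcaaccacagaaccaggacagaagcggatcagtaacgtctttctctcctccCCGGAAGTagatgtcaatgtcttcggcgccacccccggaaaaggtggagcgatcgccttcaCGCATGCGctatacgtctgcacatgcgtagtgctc
Cycs: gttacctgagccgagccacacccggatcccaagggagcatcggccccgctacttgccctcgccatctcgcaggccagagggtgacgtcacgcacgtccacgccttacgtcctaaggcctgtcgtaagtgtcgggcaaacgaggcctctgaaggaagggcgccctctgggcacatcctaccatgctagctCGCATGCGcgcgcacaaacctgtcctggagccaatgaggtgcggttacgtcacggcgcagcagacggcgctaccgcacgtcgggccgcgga
Cox7b: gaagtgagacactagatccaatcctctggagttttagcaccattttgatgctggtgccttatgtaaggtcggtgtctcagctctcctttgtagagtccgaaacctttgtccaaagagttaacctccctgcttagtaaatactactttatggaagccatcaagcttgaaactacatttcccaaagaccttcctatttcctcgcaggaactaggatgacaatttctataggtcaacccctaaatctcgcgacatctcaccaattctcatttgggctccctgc
Atp5e: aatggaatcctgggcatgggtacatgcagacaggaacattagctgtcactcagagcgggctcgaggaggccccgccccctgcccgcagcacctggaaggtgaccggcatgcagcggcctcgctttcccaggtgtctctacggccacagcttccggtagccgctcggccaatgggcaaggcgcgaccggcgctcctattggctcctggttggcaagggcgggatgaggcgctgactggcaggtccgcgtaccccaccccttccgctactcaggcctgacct
Atp5l: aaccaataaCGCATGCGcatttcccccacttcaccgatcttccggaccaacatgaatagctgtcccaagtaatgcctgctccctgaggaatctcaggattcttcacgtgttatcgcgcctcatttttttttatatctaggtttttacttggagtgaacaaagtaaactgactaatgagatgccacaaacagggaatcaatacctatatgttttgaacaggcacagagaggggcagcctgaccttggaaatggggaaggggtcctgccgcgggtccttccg
In Uqcrh the ETS core began 11 bases before the start, and the capitals show it as it reads on the other strand. In Uqcr11 the ETS core began 66 bases and the NRF1 core 5 bases before the start. In Cycs the NRF1 core began 61 bases before the start and in Atp5l 241 bases before it. The windows of Cox7b and Atp5e held none of the 3 cores.

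The table holds read counts divided by a size factor for each library, and values below are these normalised reads. Reads per library, recovered from the steps of the values, ran from 24133344 to 35940460. Genes of excitatory cortical neurons were high in every library, with 28907 to 53751 normalised reads for Slc17a7, a vesicular glutamate transporter, and 57676 to 125552 for Camk2a, a synaptic kinase subunit. Libraries stood apart in markers of neighbouring tissue. The summed level of 8 olfactory bulb markers ran from 342 to 25194, and 6 libraries were highest in them: WT female 2, HT vehicle female 2 and male 3, fluoxetine female 1 and male 1, and lithium male 1. The striatal receptor gene Drd2 was highest in HT vehicle male 1 and WT female 1, and the choroid plexus gene Ttr in HT vehicle female 1 and fluoxetine female 2. Dyrk1a itself had no lower level in HT than in WT: it had 2200 ± 90.8 normalised reads in WT (SD, n = 6), 2355 ± 61.2 in HT vehicle, 2476 ± 97.5 in HT fluoxetine and 2447 ± 113 in HT lithium. The table does not separate the alleles, so the genotype labels could not be checked by it. All 6 lithium libraries carry the batch label P40_L2, which they share with fluoxetine female 3 alone, and the other 17 libraries carry P40_L1. Lithium and batch therefore largely cannot be told apart.

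All 36 genes were well above the minimum, with means over the 24 libraries from 186 normalised reads (Atp5g2) to 25728 (Atp5b). Levels of different genes were compared per kilobase of merged exons, a length that joins the exons of all annotated transcripts. It can exceed the length of the RNA present, and the level per kb is then too low. In ATP synthase merged exons ran from 616 to 6443 bases and coding lengths from 156 to 1659 bases. Per kb the small membrane subunit of complex IV Cox8a was highest with 13073 normalised reads. It was followed by Cox6a1, another small subunit of complex IV, with 7655 per kb, and by Atp5a1 with 6534 per kb, Cox4i1 with 6479 and Atp5b with 6072. Atp5a1 and Atp5b encode the alpha and beta subunits that form the catalytic head of ATP synthase, and Cox4i1 encodes the largest nuclear subunit of complex IV. The median per kb was 1724 in complex III, 2843 in complex IV and 1717 in ATP synthase. By this measure the complexes differed in how even their genes were. The highest gene was 2.39 times the lowest per kb in complex III, 11.6 times in complex IV and 58.9 times in ATP synthase. In complex III the highest was Uqcr11, a small subunit, with 3065 per kb, and the lowest Uqcrc1, a core protein on the matrix side, with 1285. In complex IV the lowest was Cox6c with 1123 per kb, and Cycs stood at 623.

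The low end in ATP synthase was a single gene, Atp5g2, and the next lowest were Atp5l with 503 per kb and Atp5g1 with 519. Atp5g1, Atp5g2 and Atp5g3 encode precursors that give an identical mature subunit c, the unit of the proton-driven ring. Over the 24 libraries Atp5g3 held 74.4% of their summed level per kb, Atp5g1 21.1% and Atp5g2 4.50%. By normalised reads not divided by length the shares were 59.4%, 37.8% and 2.76% in the same order. Atp5g2 was the lowest of the 36 genes, with 111 normalised reads per kb. It also varied most between libraries, with a coefficient of variation of 25.7%, against a median of 8.25% over the 36 genes and a lowest value of 4.35% in Atp5c1, the gamma subunit of the rotor. The level of Atp5g2 is uncertain, since 40.2% of its stretches of 31 bases also occur in other genes, among them the transcribed pseudogene Gm10175 with a mean of 1396 normalised reads. Sharing was also high for Uqcrb (32.4%), Cycs (29.2%), Atp5h (25.4%) and Cox7c (24.5%), and it was under 5% for 17 of the 36 genes, of which 7 shared none.

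**Figure D1:**
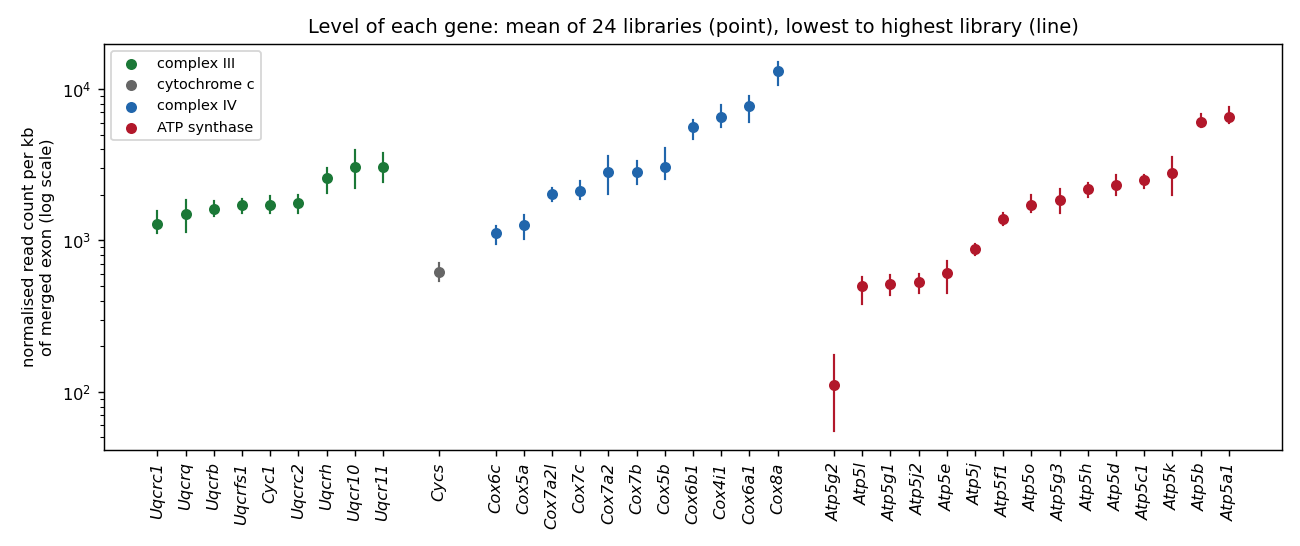
Mean level of each of the 36 genes over 24 libraries, in normalised reads per kilobase of merged exons on a log axis, grouped by complex. Cox8a stands highest with 13073 per kb and Atp5g2 lowest with 111 per kb, and complex III spans the narrowest range.

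Between HT and WT mice on vehicle no gene of the 36 passed the test. Their median log2 fold change, HT over WT, was 0.004 against -0.002 over all 16825 genes, with 17 of 36 lower and 19 higher. The 36 values ran from -0.11 to 0.11, and the median was 0.02 in complex III, 0.02 in complex IV and -0.02 in ATP synthase. No gene of the 36 was called by limma at an adjusted p under 0.05, where 0 of all genes (0%) were called, and none had an unadjusted p under 0.05, where 455 of all genes did. edgeR and DESeq2 on the recovered reads also called 0 of all genes in this comparison. The split into lower and higher genes moved with single libraries: with 1 library left out, 8 to 22 of the 36 were lower, with 8 without HT vehicle male 3 and 9 without HT vehicle female 2 or WT female 1. Without the 6 libraries highest in bulb markers, a choice made after seeing the data, 7 were lower and 29 higher, 3 of these at an unadjusted p under 0.05, and the smallest adjusted p was 0.781.

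The smallest unadjusted p-values by genotype were those of small subunits in complex III. Uqcrq, subunit 8 of complex III, had normalised reads of 2551, 2669 and 2818 in WT (lowest, median and highest of 6) and of 2480, 2890 and 3387 in HT vehicle, a log2 fold change of 0.11 ± 0.07 (SE). Uqcr11 differed by 0.10 ± 0.08 and Uqcrb, another small subunit of complex III, by 0.05 ± 0.05. In complex IV the values were 0.07 ± 0.06 for Cox7b, 0.05 ± 0.04 for Cox7a2l, a supercomplex factor that C57BL/6J mice are known to carry in a short form, and 0.08 ± 0.09 for Cox5b, a zinc-binding subunit. In ATP synthase they were 0.04 ± 0.04 for Atp5h of the peripheral stalk, 0.06 ± 0.06 for Atp5l of the membrane part, and -0.11 ± 0.12 for Atp5k, also of the membrane part. All of these ranges overlapped between the genotypes, and each adjusted p in limma rounded to 1.

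In HT mice on fluoxetine nearly all of the 36 genes had lower values than in HT mice on vehicle, by small amounts. Of the 36, 34 had a log2 fold change below 0, and the median was -0.09, against -0.001 over all genes, of which 8492 of 16825 were below 0. All 9 genes of complex III were lower (median -0.09), and 10 of 11 of complex IV (median -0.15). All 15 of ATP synthase were lower too (median -0.06). The exceptions were Cox7c and Cycs, at 0.05 and 0.02. Of their stretches of 31 bases 24.5% and 29.2% also occur in other genes, so their levels are uncertain. None of the 36 was called by limma, where 2 of all 16825 genes (0.0119%) were called, so no single gene can be said to have fallen by that test. At an unadjusted p under 0.05, 13 of the 36 were lower and 0 higher, with 4 in complex III, 4 in complex IV and 5 in ATP synthase. Over all genes 513 were lower at that level. edgeR called 0 of the 36 and 2 of all genes. DESeq2 called 1 of the 36, Cox7b, and 16 of all genes (0.0951%). In bulk tissue, fewer cells of a type and less RNA per cell cannot be told apart.

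Cox7b, a small membrane subunit of complex IV (ENSMUSG00000031231, X:106015700-106022450, plus strand, GRCm38), had the smallest p of the 36. In WT its normalised reads were 3188, 3441 and 3802 (lowest, median and highest of 6), in HT vehicle 3389, 3623 and 3894, in HT fluoxetine 2847, 3055 and 3230, and in HT lithium 3209, 3717 and 4046. Every fluoxetine library was below every vehicle library of HT mice, while WT and lithium libraries overlapped the range of HT vehicle and also reached below it. The log2 fold change, fluoxetine over vehicle, was -0.26 ± 0.06 (SE), a value lower by 16.5%. limma's adjusted p was 0.343 (unadjusted 0.000194), edgeR's 0.305 and DESeq2's 0.0214. Over the alternatives in which limma dropped 1 library, its adjusted p ran from 0.240 to 0.821.

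**Figure D2:**
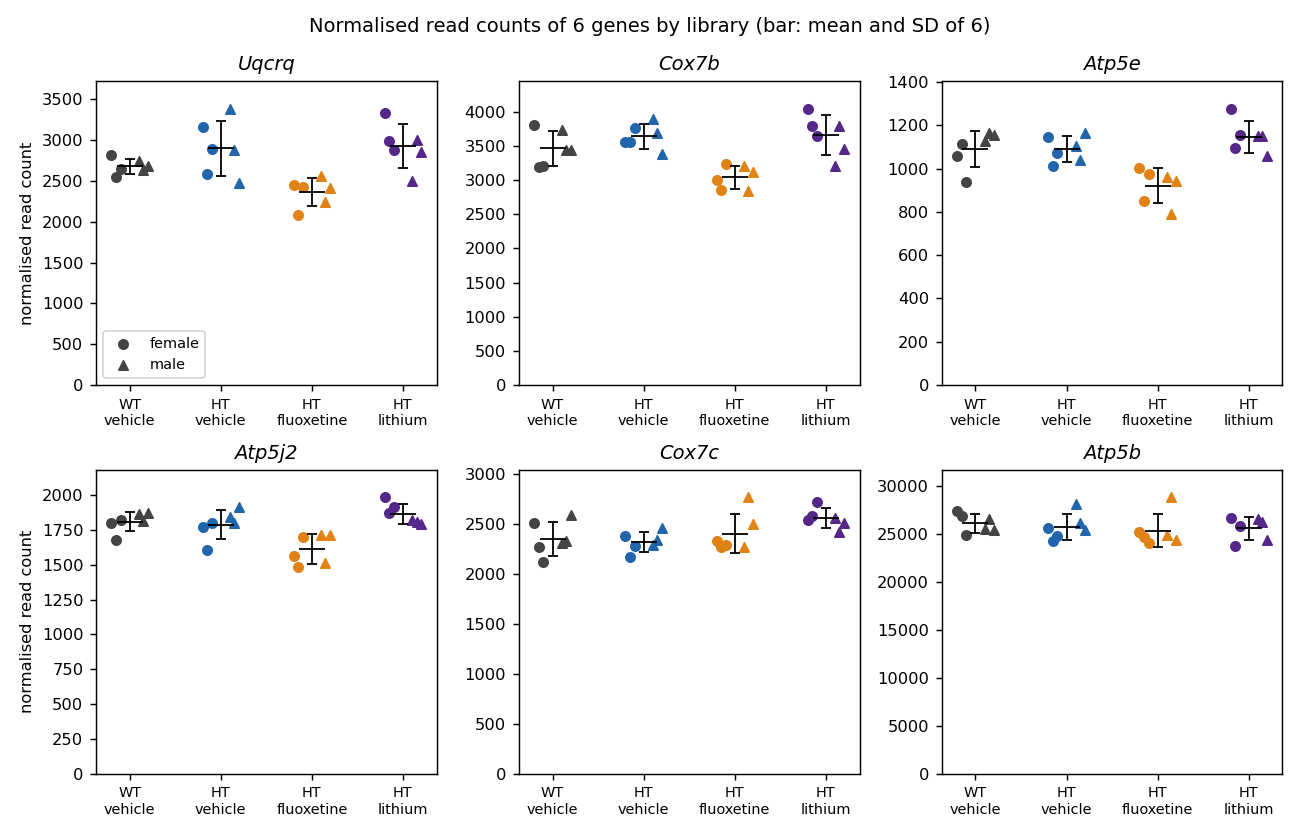
Normalised reads of 6 genes (Uqcrq, Cox7b, Atp5e, Atp5j2, Cox7c and Atp5b) in each of the 24 libraries, by arm and sex, with bars for the mean and SD of each arm of 6. The 6 fluoxetine libraries of Cox7b and of Atp5e lie below all 6 HT vehicle libraries, while the ranges of Cox7c overlap between these arms.

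Atp5e, the epsilon subunit of the ATP synthase rotor stalk (ENSMUSG00000016252, 2:174461072-174464105, minus strand), was the other gene whose groups did not overlap. It had 940, 1119 and 1163 normalised reads in WT, 1012, 1088 and 1163 in HT vehicle, 792, 954 and 1001 in HT fluoxetine and 1058, 1150 and 1277 in HT lithium. The highest fluoxetine library stayed just under the lowest HT vehicle library. The log2 fold change was -0.25 ± 0.06 and limma's adjusted p 0.506. Over all genes, 37 of 16825 (0.22%) had all 6 fluoxetine libraries below all 6 vehicle libraries, and Cox7b and Atp5e were the 2 of the 36 among them.

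In complex III the values furthest below 0 on fluoxetine were those of small accessory subunits, and the core proteins were nearer to 0. Uqcrq had 2085, 2418 and 2567 normalised reads on fluoxetine, against 2480, 2890 and 3387 in HT vehicle and 2498, 2935 and 3328 on lithium. Its log2 fold change was -0.29 ± 0.07, the most negative of the 36, with an adjusted p of 0.527. All 6 fluoxetine libraries were below the mean of HT vehicle, although the highest fluoxetine library was above the lowest vehicle library. Uqcrh, the hinge protein beside cytochrome c1, had 2956, 3216 and 3370 in WT, 3117, 3227 and 3728 in HT vehicle, 2539, 3012 and 3119 on fluoxetine and 3288, 3430 and 3591 on lithium, with a log2 fold change of -0.16 ± 0.05 (adjusted p 0.606).

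A like order held for Uqcr11, with 1620, 1950 and 2198 in WT, 1720, 2114 and 2338 in HT vehicle, 1552, 1745 and 1994 on fluoxetine and 1694, 2199 and 2403 on lithium, and a log2 fold change of -0.21 ± 0.08. Uqcr10, another small subunit, had 1504, 1815 and 2061 in WT, 1624, 1775 and 2319 in HT vehicle, 1302, 1539 and 1693 on fluoxetine and 1644, 1915 and 2262 on lithium (-0.26 ± 0.09). The fluoxetine and vehicle ranges of both overlapped, and both had an adjusted p of 0.742. For the catalytic and core proteins the log2 fold change was -0.09 for Cyc1, which carries the haem that reduces cytochrome c, -0.06 for Uqcrfs1, the Rieske iron-sulfur protein, -0.08 for the core protein Uqcrc1 and -0.01 for the core protein Uqcrc2. Uqcrb was at -0.03, with 1320, 1357 and 1466 in WT, 1314, 1417 and 1596 in HT vehicle, 1313, 1384 and 1501 on fluoxetine and 1268, 1426 and 1476 on lithium.

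In complex IV Cox7a2 was as far below 0 as Cox7b, with a larger p, and Cox5b came next. Cox7a2, a small subunit at the edge where complex IV meets complex III, had 2293, 2783 and 2918 normalised reads in WT, 2392, 2839 and 2932 in HT vehicle, 1916, 2449 and 2488 on fluoxetine and 2436, 2961 and 3409 on lithium. Its log2 fold change was -0.26 ± 0.08 (adjusted p 0.606), with all 6 fluoxetine libraries below the vehicle mean. Cox5b had 4379, 4743 and 5447 in WT, 4450, 5080 and 6463 in HT vehicle, 4034, 4198 and 5181 on fluoxetine and 4311, 4916 and 5900 on lithium (-0.24 ± 0.09, adjusted p 0.742). Of the 6 fluoxetine libraries of Cox5b 5 were below the vehicle mean and 1, male 2, was above it.

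Cox8a, with 6536, 8502 and 8792 in WT, 7092, 8365 and 9260 in HT vehicle, 6722, 7216 and 8398 on fluoxetine and 6997, 8682 and 9169 on lithium, had a log2 fold change of -0.17. Its ranges overlapped in all arms, and its lowest WT and lithium libraries were among the 6 highest in olfactory bulb markers. Cox6a1 was at -0.15, Cox4i1 at -0.15, Cox6b1, which faces the intermembrane space, at -0.10, and Cox5a at -0.09. Cox6c had 3751, 3931 and 4318 in WT, 3752, 4005 and 4220 in HT vehicle, 3382, 3762 and 4228 on fluoxetine and 3899, 4246 and 4424 on lithium (-0.09). Cox7a2l had 2852, 2922 and 3099 in WT, 2709, 3121 and 3287 in HT vehicle, 2766, 2810 and 3134 on fluoxetine and 2718, 3103 and 3221 on lithium (-0.09). Cox7c, a small subunit with 3 of its 6 fluoxetine libraries below the HT vehicle mean and 3 above it, had 2118, 2325 and 2591 in WT, 2170, 2322 and 2466 in HT vehicle, 2268, 2312 and 2770 on fluoxetine and 2421, 2554 and 2724 on lithium.

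In ATP synthase the next lowest values after Atp5e were in the membrane part. Atp5j2, subunit f of the membrane part, had 1677, 1818 and 1873 normalised reads in WT, 1607, 1800 and 1914 in HT vehicle, 1484, 1631 and 1715 on fluoxetine and 1791, 1848 and 1983 on lithium (-0.15 ± 0.04, adjusted p 0.555). Atp5l, subunit g, which helps hold ATP synthase dimers together, had 3019, 3250 and 3346 in WT, 3164, 3272 and 3665 in HT vehicle, 2455, 2989 and 3309 on fluoxetine and 3364, 3446 and 3698 on lithium (-0.18 ± 0.06, adjusted p 0.618). In both genes all 6 fluoxetine libraries were below the vehicle mean, with overlapping ranges.

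The peripheral stalk genes were at -0.11 for Atp5f1, -0.09 for Atp5j, -0.05 for Atp5h and -0.05 for Atp5o. Atp5h had 2945, 3166 and 3294 in WT, 3066, 3216 and 3479 in HT vehicle, 2841, 3081 and 3412 on fluoxetine and 3178, 3291 and 3480 on lithium. Of the catalytic head and rotor, Atp5a1 was at -0.01, Atp5b at -0.02, Atp5c1 at -0.04 and Atp5d, the delta subunit, at -0.12. Atp5a1 had 19780, 20541 and 21884 in WT, 19519, 20234 and 22139 in HT vehicle, 18950, 19723 and 23855 on fluoxetine and 18710, 20560 and 21827 on lithium, ranges that overlapped throughout. Atp5d had 4342, 4385 and 5203 in WT, 3849, 4527 and 5015 in HT vehicle, 3859, 3985 and 4632 on fluoxetine and 4168, 4744 and 5183 on lithium.

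The subunit c genes were at -0.02 for Atp5g1, -0.06 for Atp5g2 and -0.12 for Atp5g3, and none had an unadjusted p under 0.05. Atp5g3 had 3701, 3995 and 4332 in WT, 3619, 3943 and 4781 in HT vehicle, 3289, 3692 and 4101 on fluoxetine and 3968, 4258 and 4472 on lithium. Atp5g1 had 2235, 2597 and 2756 in WT, 2173, 2618 and 2709 in HT vehicle, 2145, 2409 and 2883 on fluoxetine and 2513, 2697 and 2840 on lithium. Atp5k had 1419, 1834 and 2072 in WT, 1225, 1664 and 2181 in HT vehicle, 1253, 1640 and 1937 on fluoxetine and 1475, 1726 and 1923 on lithium, with a log2 fold change of -0.05. Cycs had similar values in the 4 arms. It had 1993, 2049 and 2404 in WT and 1825, 2100 and 2390 in HT vehicle. On fluoxetine it had 1923, 2120 and 2309 and on lithium 1911, 2190 and 2301. Its level is uncertain, since 29.2% of its stretches of 31 bases also occur in other genes. Among these is Gm10053, with a mean of 2470 normalised reads.

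**Figure D3:**
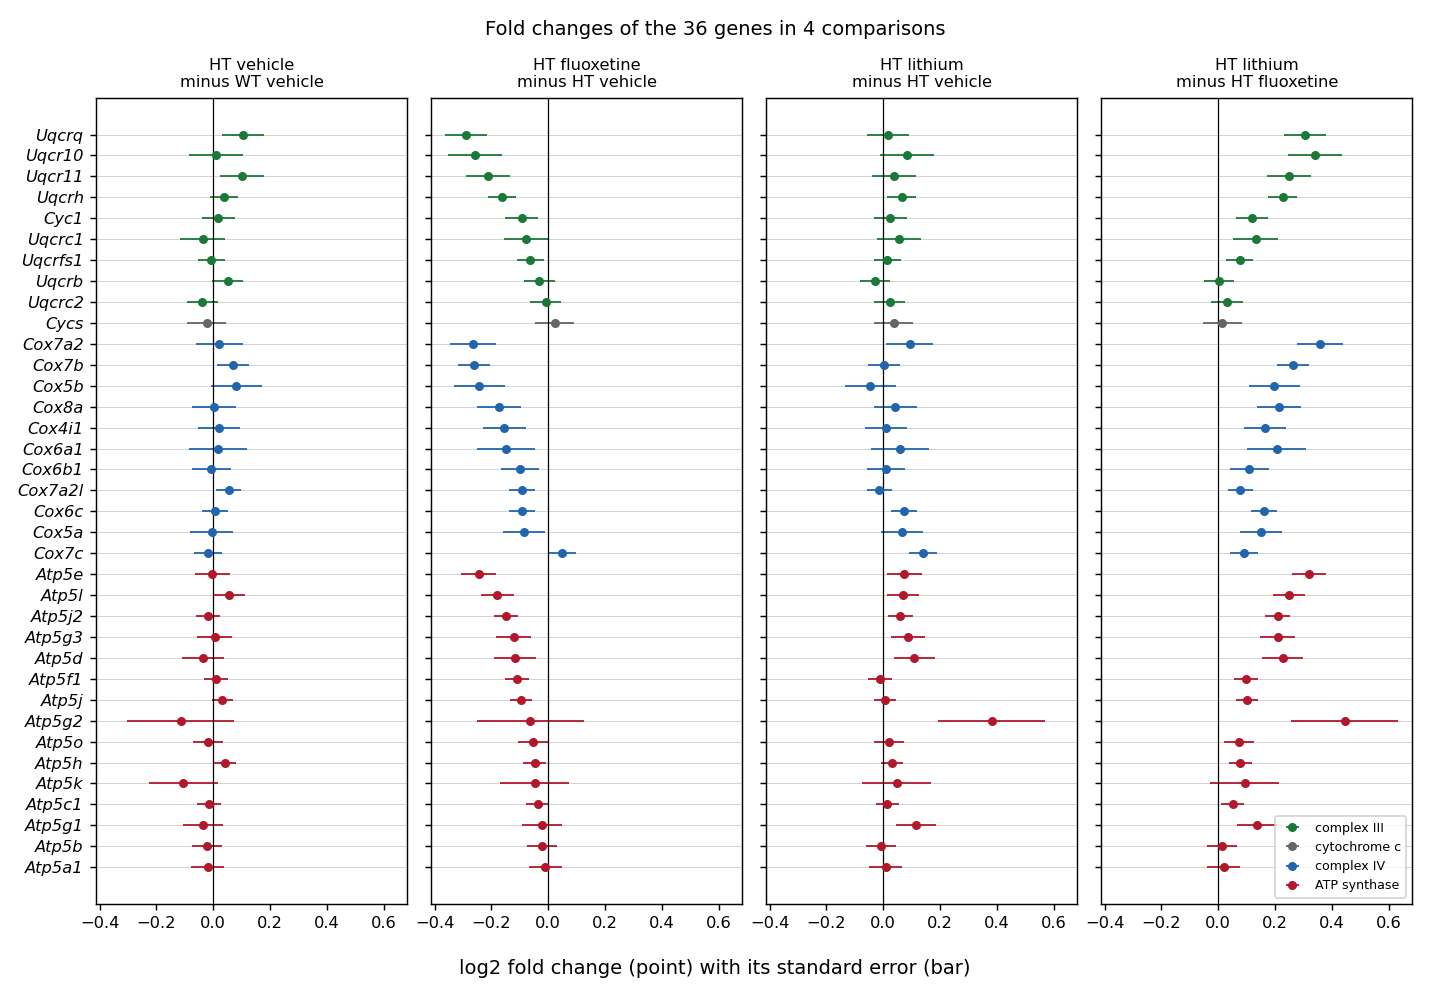
Log2 fold change of each of the 36 genes with its standard error from limma, by complex, in 4 comparisons of arms. Fluoxetine over vehicle in HT mice lies below 0 for 34 genes, and lithium over fluoxetine lies above 0 for all 36.

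The size of the fluoxetine difference went with the length of the coding sequence, among these genes and among the rest. The 19 genes with a coding length under 400 bases had a median log2 fold change of -0.16 (17 of 19 lower), the 10 from 400 to under 800 bases -0.09 and the 7 of 800 bases or more -0.04. Other protein-coding genes had medians of -0.06 for 677 genes under 400 bases (68.7% lower), -0.02 for 2441 genes of middle length (59.4% lower) and 0.01 for 11529 long genes (45.2% lower). By merged exons, 413 of the 618 other genes under 1 kb were lower, with a median of -0.08. Values below 0 were thus commoner among short genes outside the list too, and in each class the median of the respiratory genes was further below 0 than that of the rest. Whether length or what goes with it had a part in the result was not tested. The coding-length classes were chosen after the values had been seen.

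**Figure D4:**
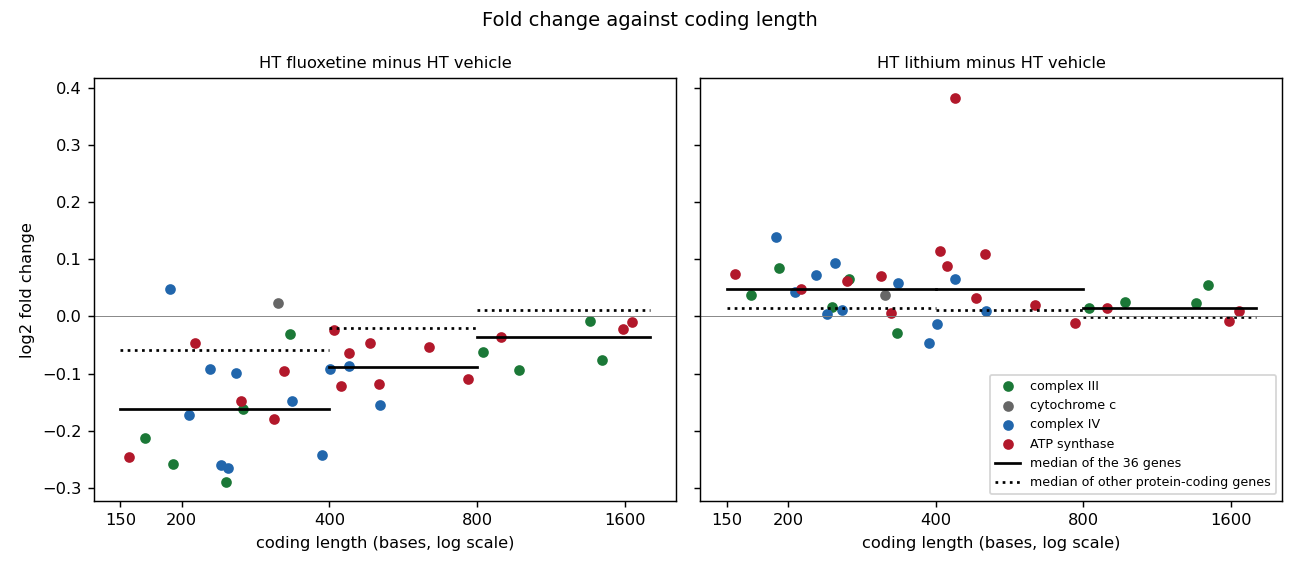
Log2 fold change against coding length in bases on a log axis for the 36 genes, fluoxetine over vehicle (left) and lithium over vehicle (right) in HT mice, with the medians of these genes and of other protein-coding genes in 3 length classes. On fluoxetine the medians of the 36 genes run from -0.16 in the shortest class to -0.04 in the longest, those of other genes from -0.06 to 0.01, and on lithium the 36 genes lie near 0 in all classes.

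Markers of other tissue also had shifted values on fluoxetine in HT mice, with none called by limma, edgeR or DESeq2. They varied widely between libraries. The bulb sums were 6722 ± 8533 in HT vehicle (SD, n = 6) and 9859 ± 10749 on fluoxetine, and the striatal sums 13255 ± 11060 and 7771 ± 3316. For Drd2, HT vehicle male 1 had 1379 normalised reads and the next highest HT vehicle library 111. All 8 olfactory bulb markers were higher on fluoxetine (median log2 fold change 0.75), with sums of 631 to 18157 in HT vehicle and of 710 to 25194 on fluoxetine, and defining markers were at 0 in single libraries (Eomes in HT vehicle, Tbx21 on fluoxetine). All 8 striatal markers were lower (median -0.51), with sums of 5174 to 35086 in HT vehicle and of 3751 to 12038 on fluoxetine. Without the 6 libraries highest in bulb markers 33 of the 36 genes were lower, 20 of them at an unadjusted p under 0.05, the complex medians were -0.16, -0.20 and -0.10, and the smallest adjusted p was 0.067, that of Uqcrq. Without the 4 libraries highest in Drd2 or Ttr 27 genes were lower, 5 of them at an unadjusted p under 0.05, and the complex medians came to -0.05, -0.11 and -0.03. These choices were made after seeing the data. Within batch P40_L1, 34 genes were lower and the complex medians were -0.09, -0.16 and -0.10.

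The 3 complexes were high or low in the same libraries for the most part. For each library a score was taken as the mean log2 deviation of a complex's genes from their means over the 24 libraries. In 21 of the 24 libraries the 3 scores had the same sign, below 0 in 10 libraries and above 0 in 11. All 6 fluoxetine libraries had all 3 scores below 0, as had 2 WT, 2 HT vehicle and 0 lithium libraries. Complex III was only just below 0 in 1 fluoxetine library, at -0.00022. All 3 scores were above 0 in 5 lithium, 4 WT, 2 HT vehicle and 0 fluoxetine libraries. The pattern was not particular to these complexes. The score of the nuclear complex I genes was below 0 in each fluoxetine library, from -0.183 to -0.044. The median deviation of other protein-coding genes with a coding length under 400 bases was so too, from -0.091 to -0.004. Both were above 0 in each lithium library except male 1. The libraries at the ends were fluoxetine female 2, with -0.21, -0.18 and -0.17 for complexes III, IV and ATP synthase, and lithium female 1, with 0.18, 0.20 and 0.16.

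By arm the complexes gave the same order at the low end. The score of complex III was 0.005 ± 0.063 in WT (SD, n = 6), 0.032 ± 0.084 in HT vehicle, -0.101 ± 0.069 in HT fluoxetine and 0.064 ± 0.076 in HT lithium. That of complex IV was 0.009 ± 0.080, 0.031 ± 0.104, -0.111 ± 0.061 and 0.071 ± 0.104 in the same order, and that of ATP synthase 0.017 ± 0.030, 0.001 ± 0.081, -0.087 ± 0.043 and 0.068 ± 0.053. The differences between WT, HT vehicle and lithium were within 1 SD of these arms for complexes III and IV, and the fluoxetine mean lay below the other arms in each complex. The summed normalised reads of complex IV ran from 45209 to 56389 in HT vehicle (median 52913) and from 44461 to 49515 on fluoxetine (median 45435), so the ranges overlapped. Whether the complexes differed from each other in the size of the difference was not tested.

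**Figure D5:**
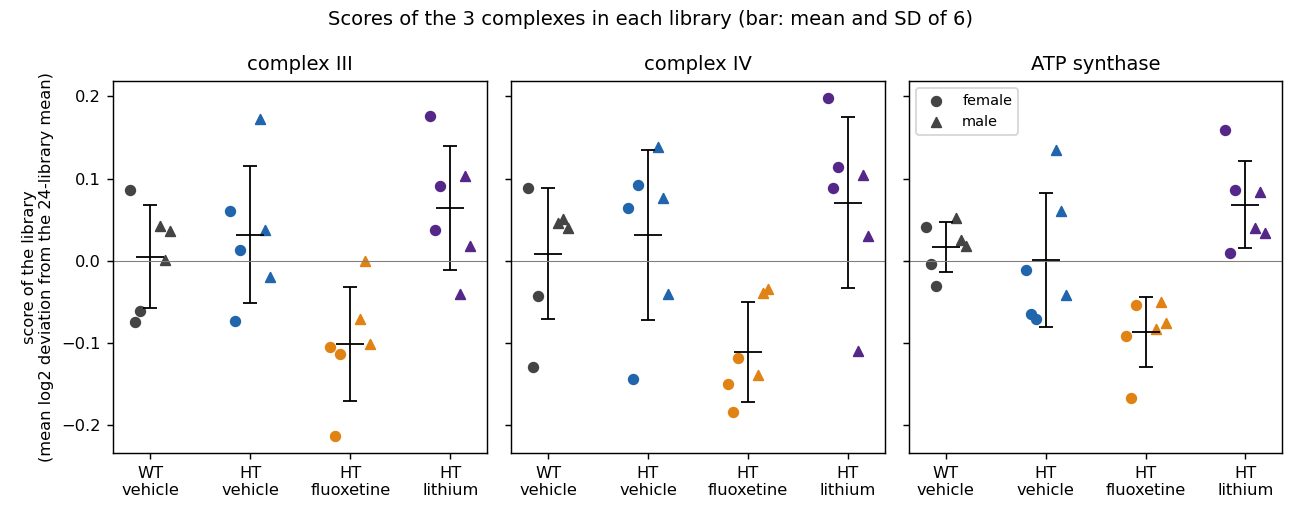
Score of complex III, complex IV and ATP synthase in each of the 24 libraries, as the mean log2 deviation from the 24-library mean, by arm and sex, with bars for the mean and SD of 6. All 6 fluoxetine libraries lie below 0 in each complex, and lithium female 1 lies highest.

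On lithium the 36 genes were near their level in HT vehicle. The median log2 fold change, lithium over vehicle in HT mice, was 0.04 against -0.001 over all genes, with 31 of 36 higher and 5 lower, and medians of 0.03 in complex III, 0.04 in complex IV and 0.05 in ATP synthase. No gene of the 36 was called by limma, where 2 of all genes (0.0119%) were called, and the single gene at an unadjusted p under 0.05 was Cox7c. DESeq2 called 0 of the 36 and 3 of all genes (0.0178%), and edgeR 0 of all genes. All 6 lithium libraries of Cox7c were above the mean of HT vehicle, with overlapping ranges and a log2 fold change of 0.14 ± 0.05 (unadjusted p 0.012, adjusted p 1 in limma). In complex IV the next were Cox6c at 0.07 ± 0.05 and Cox7a2 at 0.09 ± 0.08. In complex III the values were 0.06 ± 0.05 for Uqcrh, 0.08 ± 0.09 for Uqcr10 and 0.06 ± 0.08 for Uqcrc1, which had 4896, 5371 and 6106 normalised reads in WT, 4644, 5242 and 6489 in HT vehicle, 4780, 4818 and 6028 on fluoxetine and 5078, 5484 and 6049 on lithium.

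In ATP synthase Atp5g2 had the largest value on lithium, 0.38 ± 0.19, with 159, 181 and 211 normalised reads in WT, 92, 161 and 293 in HT vehicle, 127, 156 and 210 on fluoxetine and 170, 222 and 248 on lithium. Its HT vehicle libraries ranged so widely that they covered all the lithium libraries. Atp5g1 was at 0.11 ± 0.07 and Atp5d at 0.11 ± 0.07. With batch as a term in the fit, where fluoxetine female 3 alone tells batch from lithium, the 36 genes were split evenly, 18 higher and 18 lower, with a median of 0.001. Without single libraries the number of lower genes rose from 5 to 14 (HT vehicle male 3 left out), 12 (HT vehicle female 2), 12 (lithium male 2) or 11 (lithium female 1).

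The arms on drugs were furthest from each other. All 36 genes were higher on lithium than on fluoxetine, with a median log2 fold change of 0.14 against -0.003 over all genes, and of 0.13, 0.16 and 0.10 in complexes III, IV and ATP synthase. This comparison shares its libraries with the comparisons above and is not separate evidence. None of the 36 was called by limma, where 4 of all genes (0.0238%) were called, and 18 of the 36 were higher at an unadjusted p under 0.05, with 538 of all genes higher at that level. edgeR called 0 of the 36 and 4 of all genes, and DESeq2 called 7 of the 36 and 30 of all genes (0.178%). Those 7 were Uqcrh, Uqcrq, Cox7a2, Cox7b, Atp5e, Atp5j2 and Atp5l.

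Atp5e had the smallest p, with a log2 fold change of 0.32 ± 0.06 (adjusted p 0.0807 in limma), followed by Atp5j2 at 0.21 (adjusted p 0.145), Cox7b at 0.26 (0.188) and Uqcrh at 0.23 (0.217). In Atp5e, Atp5j2, Uqcrh and Atp5l all 6 lithium libraries were above all 6 fluoxetine libraries, as in 39 of all 16825 genes (0.232%). For Atp5l the lowest lithium library had 3364 normalised reads and the highest fluoxetine library 3309. The smallest values were those of Uqcrb (0.003), Cycs (0.01), Atp5b (0.02) and Atp5a1 (0.02). Among protein-coding genes outside the 36 with a coding length under 400 bases the median was 0.06, while it was 0.21 for the 19 short respiratory genes. The 8 olfactory bulb markers were all lower on lithium than on fluoxetine (median -0.76), with sums down to 342 on lithium and Tbx21 at 0 in some libraries of both arms. With the bulb marker score as a covariate, chosen after seeing the data, limma called Uqcrh and Atp5e among 12 of all genes (0.0713%).

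The only library that shares a batch label with the lithium arm lay within the range of the other fluoxetine libraries. The score over all 36 genes was -0.089 in fluoxetine female 3, from -0.179 to -0.029 in the other 5 fluoxetine libraries, and from 0.044 to 0.167 in the 3 lithium females of its batch. In this library 29 of the 36 genes were lower than in each of the 3 lithium females, and 36 of 36 were lower than their mean. No share over all genes was taken for these counts, and the 36 genes are not replicates of an arm. Other protein-coding genes with a coding length under 400 bases differed the same way. Their median deviation was -0.049 in fluoxetine female 3 and 0.090, 0.045 and 0.069 in lithium females 1, 2 and 3. Each of these is a comparison of 1 library with 3 and has no replicate check. With batch as a term, lithium over fluoxetine was above 0 for 34 of the 36 genes, with 0 at an unadjusted p under 0.05.

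Against WT vehicle the order was the same. On fluoxetine 33 of the 36 genes were lower than in WT, with a median log2 fold change of -0.11 and medians of -0.11, -0.13 and -0.10 in complexes III, IV and ATP synthase. Of these 11 had an unadjusted p under 0.05, the smallest adjusted p in limma was 0.506, and 0 of all genes (0%) were called, with 737 at an unadjusted p under 0.05. With 1 library left out 5 to 10 were at an unadjusted p under 0.05, with 5 without fluoxetine female 2, 6 without WT female 1 and 7 without WT male 1 or WT male 3, and without the 4 libraries highest in Drd2 or Ttr 3 were. Without WT female 1 the complex III median came to -0.05. On lithium 31 of the 36 were higher than in WT, with a median of 0.04, and 0 of all genes (0%) were called by limma, with 431 at an unadjusted p under 0.05. With batch as a term 18 of the 36 were higher and 18 lower than in WT. Atp5l was the single gene of the 36 whose lithium libraries were all above all WT libraries, the highest of which had 3346 normalised reads, as in 26 of all genes (0.155%). edgeR called 0 genes in both comparisons, and DESeq2 called 18 of all genes (0.107%) and 5 of all genes (0.0297%), none of them among the 36.

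Females and males gave the same direction on fluoxetine and differing values on lithium. Fluoxetine over vehicle had a median of -0.10 in females (32 of 36 lower) and of -0.10 in males (33 of 36 lower). Lithium over vehicle had a median of 0.11 in females, with all 36 genes higher and 4 at an unadjusted p under 0.05. In males the median was -0.03, with 24 of 36 lower. Other protein-coding genes with a coding length under 400 bases had medians of 0.06 in females (32.5% lower) and -0.02 in males (59.5% lower). In each sex lithium and HT vehicle libraries also differ in batch label, so drug and batch cannot be told apart here. The difference between the sexes in the lithium effect, male minus female, was below 0 for 35 of the 36 genes with a median of -0.13. In limma's test of that difference 0 of all genes (0%) were called, 274 had an unadjusted p under 0.05, and 2 of the 36 did. The smallest adjusted p among the 36 was 0.998. Other genes with merged exons under 1 kb had a median sex difference of -0.09. In scores, fluoxetine was the lowest arm in both sexes for each complex. Lithium was the highest arm in females for all 3 complexes and in males for ATP synthase, while HT vehicle was highest in males for complexes III and IV. Over all arms 31 of the 36 were higher in males, with a median of 0.03, and limma called 14 of all genes (0.0832%) and 0 of the 36 between the sexes.

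Genes that complete or build these complexes also had mostly lower values on fluoxetine. Of 8 further subunits and regulators of complex IV and ATP synthase 7 were lower than in HT vehicle (median -0.12). Among them was Ndufa4, now counted as a subunit of complex IV, which had 4185 ± 246 normalised reads in HT vehicle (SD, n = 6) and 3650 ± 207 on fluoxetine (-0.20 ± 0.04, adjusted p 0.255 in limma). Usmg5, a small membrane subunit of ATP synthase, was at -0.12 ± 0.06. Of 21 assembly factors of complex IV 17 were lower (median -0.07), with Cox11, a copper chaperone, at -0.15 and Pet100 at -0.20. Of 6 assembly factors of complex III 4 were lower (median -0.05), with Uqcc3 at -0.13 and Uqcc2 at -0.10, and of 3 for ATP synthase all 3 (median -0.03), with Atpaf1 at -0.06 and Atpaf2 at -0.03. None of these was called by limma or edgeR, and DESeq2 called Ndufa4 alone (adjusted p 0.00201).

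The nuclear genes of complex I, which feeds electrons into the chain from NADH, held the single gene of these lists that limma called on fluoxetine. Of 37 genes 36 were lower on fluoxetine than in HT vehicle (median -0.12), 16 of them at an unadjusted p under 0.05. Ndufs3, a core subunit, had 2326 ± 74.8 normalised reads in HT vehicle and 1981 ± 73.3 on fluoxetine and fell by 0.23 ± 0.03 on the log2 scale (adjusted p 0.0251 in limma, 0.0208 in edgeR, 1.58e-07 in DESeq2). The highest fluoxetine library of Ndufs3 had 2058 normalised reads and the lowest HT vehicle library 2266. Of all 16825 genes 37 (0.22%) had all fluoxetine libraries below all HT vehicle libraries. The call was lost within batch P40_L1 (adjusted p 0.122), with only the compared groups in the fit (0.705), without the libraries highest in Drd2 or Ttr (1) and without those highest in bulb markers (0.077). With 1 library left out its adjusted p ran from 0.0359 to 0.136, and it was still called only without HT vehicle male 3 or fluoxetine female 3. Ndufb1-ps was at -0.25 ± 0.05 (adjusted p 0.255 in limma). DESeq2 called 3 of the 37, Ndufs3, Ndufb1-ps (adjusted p 0.00945) and Ndufb6 (0.0378). The 4 genes of complex II were all lower (median -0.05), with Sdhb at -0.08 and Sdhc at -0.08.

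Between the drugs, Ndufa4, Ndufb6 and Ndufs3 were higher on lithium than on fluoxetine by 0.26 ± 0.04, 0.30 ± 0.05 and 0.22 ± 0.03 on the log2 scale, each with an adjusted p of 0.0395 in limma. With batch as a term the adjusted p of each rounded to 1, and without the libraries highest in Drd2 or Ttr it was 0.312. With only the compared groups in the fit it was 0.679. With 1 of the 12 libraries left out the call was lost in 9 fits for Ndufa4, in 11 for Ndufb6 and in 10 for Ndufs3, with adjusted p-values of at most 0.152. In 9 of these 12 fits limma called 0 of all genes. The subunits of complexes III, IV and ATP synthase that the mitochondrial genome encodes did not share the direction of the nuclear genes on fluoxetine: 4 of 6 were higher, with a median of 0.04. The exception in size was mt-Co2, subunit 2 of complex IV, with 99082 to 118964 normalised reads in HT vehicle, 32459 to 87185 on fluoxetine, 56780 to 171263 on lithium and 66508 to 109551 in WT. Its fluoxetine libraries lay below all its HT vehicle libraries, as in 37 of all 16825 genes (0.22%). Its log2 fold change on fluoxetine was -1.06 ± 0.29 (adjusted p 0.546), and mt-Atp8, a subunit of ATP synthase, was at -0.19 ± 0.16. The library kit selects polyadenylated RNA, and how reads of overlapping genes or of nuclear copies of mitochondrial sequence were counted is not stated in the labels.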

How the data were processed

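The authors deposited one table of normalised read signal for 18240 Ensembl genes in 24 libraries, made with a stranded poly(A) kit (TruSeq Stranded mRNA) per the labels' protocols. Salmon 0.11.2, R 3.6.0, DESeq2 1.19.11 and GRCm38 are named per the submitters' processing notes, with no role or order. The deposited signal is read counts divided by a size factor: whole reads were recovered for 100% of values within 0.01 of a read. Depth ran from 24133344 to 35940460 reads per library, and values carry counting error besides the spread between libraries. GENCODE M21 matched 18227 identifiers, all but 13. The smallest mean in the table was 1.63, so lower genes had been left out before deposit.

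The main test was limma 3.58.1 (trend, R 4.3.3) on log2(value + 1), which understates changes of low genes. It took 16825 genes whose mean reached 10, leaving out 1415, with 8 group means, equal weight for the sexes and Benjamini-Hochberg adjustment over all genes tested. The alternatives edgeR 4.0.16 (TMM scaling, quasi-likelihood test) and DESeq2 1.42.0 were run on the recovered counts and called 2 and 16 genes for fluoxetine over vehicle, where limma called 2. The steps were tested on simulated data. Tables and figures were made with Python 3.11.15, pandas 2.3.3, numpy 2.4.6 and matplotlib 3.10.9. Members, lists, tests and alternatives were chosen with earlier results of these data known. Genes named in every arm were, in each complex, the 3 with the smallest unadjusted p in each of the genotype, fluoxetine and lithium comparisons, any gene called, Cycs, the highest and lowest gene per kb and the subunit c genes; in other lists, called genes and the 2 with the smallest p on fluoxetine were named. Sequences came from RefSeq on GRCm38.p6. The list of excitatory neuron markers is not reported here as a whole. Same-numbered replicates were not treated as pairs.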

Additional observations from a re-analysis of the deposited data

Results flagged for a closer look

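In each arm of 6 libraries the highest and lowest values of the 36 genes and of the 3 complex scores were compared with the rest by Dixon's ratio. Of 156 groups 17 had a library set apart at its 95% critical value, where chance gives about 1 in 20 groups, and the groups share libraries. Of these, 5 came from fluoxetine male 2 and 5 from WT female 2.

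Fluoxetine male 2 was the highest of its arm in 5 genes, 3 of them of ATP synthase. Its normalised reads were 23855 for Atp5a1, where the other 5 libraries had 18950 to 19903, and 28858 for Atp5b, where they had 24128 to 25212. For Uqcrc1 it had 6028, where the others had 4780 to 4906. Cox5b stood at 5181 against 4034 to 4331, and Atp5d at 4632 against 3859 to 4118.

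WT female 2, one of the 6 libraries highest in olfactory bulb markers, was the lowest of its arm in 5 genes, 4 of them of complex IV. It had 6536 normalised reads for Cox8a against 8467 to 8792 in the other 5, and 4293 for Cox6a1 against 5326 to 5855. Cox6b1 was at 3588 against 3984 to 4214, Cox7a2 at 2293 against 2673 to 2918, and Atp5j2 at 1677 against 1802 to 1873. Lithium male 1, also among those 6 libraries, was the lowest of its arm for Cox8a with 6997 against 8475 to 9169 and for Cox6a1 with 4444 against 5689 to 6303. The part of bulb tissue in these values was not tested.

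Other libraries set apart were single cases. HT vehicle male 3 was highest for Uqcrh with 3728 against 3117 to 3236. HT vehicle male 1 was highest for Atp5g3 with 4781 against 3619 to 3967. WT female 1 was highest for Atp5d with 5203 against 4342 to 4530. Fluoxetine female 2 was lowest for Uqcrh with 2539 against 2887 to 3119, and its ATP synthase score of -0.167 was set apart as the lowest of its arm.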

How the results depend on the processing

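limma called 0 of the 36 genes in every comparison and under each alternative except the bulb marker score as a covariate, which gave 2 for lithium over fluoxetine (Uqcrh and Atp5e) among 12 of all 16825 genes (0.0713%). DESeq2 gave 1 on fluoxetine over vehicle (Cox7b, -0.26) and 7 for lithium over fluoxetine, and over all genes 16, 3 and 30 on fluoxetine, on lithium and between the drugs, where limma called 2, 2 and 4; the cause was not tested. With 1 library left out limma called 0 to 2, 0 and 0 to 6 of all genes in these comparisons. Of 636 alternative medians 635 moved by less than the spread of the score. The other was complex III on fluoxetine, which came to -0.16 without the 6 libraries highest in bulb markers. The spread is the pooled SD of library scores within groups. It was 0.058 for all 36 genes, and 0.070, 0.084 and 0.051 for complexes III, IV and ATP synthase. By genotype the spread exceeds the size of the median of the 36 genes and of each complex. On lithium over vehicle it exceeds that of the 36 genes and of complexes III and IV. The count therefore cannot show that those medians kept their sign. With batch as a term, lithium over vehicle changed sign for Uqcrh (-0.069), Uqcr10 (-0.021), Cox6c (-0.12), Cox7a2 (-0.060) and Atp5g2 (-0.16), and its complex medians were -0.02, -0.01 and 0.02. With 1 library left out, Atp5k by genotype ran from -0.20 to 0.0085 (above 0 without HT vehicle female 3), and Uqcrc1 on lithium from -0.00017 to 0.12 (below 0 without HT vehicle male 3). On fluoxetine the median of the 36 then ran from -0.12 to -0.08, with 30 to 34 genes lower and 10 to 20 at an unadjusted p under 0.05 (20 without HT vehicle female 2). The ATP synthase median of -0.06 came to -0.10 in edgeR, in DESeq2, within batch P40_L1, and without HT vehicle female 3 or fluoxetine female 3, and that of complex III to -0.06 without HT vehicle male 1. On lithium over vehicle the median of the 36 ran from 0.01 to 0.06 and that of complex IV from -0.01 to 0.06, below 0 without HT vehicle female 2 or male 3.

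Same-numbered replicates were not shown to be pairs: 12 of 36 such pairs of libraries correlated above 0.1 (-0.695 to 0.724), and 7 of 24 libraries correlated best with one of their own number. With the replicate block 34 genes were lower on fluoxetine, 15 of them at an unadjusted p under 0.05, with a median of -0.09 and a smallest adjusted p of 0.464, and 0 of all genes were called in any comparison of arms. Depth limits none of the 36 genes much, since the lowest, Atp5g2, had a mean of 186 normalised reads.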

Other observations

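Most genes that regulate the respiratory chain had mean values on fluoxetine opposite in sign to the 36 genes, without passing the test. Their score was above 0 in fluoxetine female 1 (0.124), female 3 (0.069) and male 1 (0.147). It was below 0 in female 2 (-0.011), male 2 (-0.073) and male 3 (-0.025). In HT vehicle it ran from -0.087 to 0.053. Fluoxetine female 1 and male 1 were among the 6 libraries highest in bulb markers, whose part here was not tested. Of 12 such regulators 10 were higher than in HT vehicle, with a median log2 fold change of 0.06, and 0 were called by limma. Pprc1, a coactivator of nuclear respiratory genes, had 684.7 to 772.5 normalised reads in HT vehicle and 774.9 to 881.2 on fluoxetine. Its log2 fold change was 0.16 ± 0.04 (adjusted p 0.546). Its fluoxetine libraries lay above all its HT vehicle libraries, as in 42 of all 16825 genes (0.25%). On lithium it had 759.7 to 878.5, or 0.15 ± 0.04 over vehicle (adjusted p 1). Gabpa, the DNA-binding subunit of GABP, had 508.8 to 675.7 in HT vehicle and 583.1 to 805.0 on fluoxetine, at 0.21 ± 0.10 (adjusted p 0.895), and was at 0.01 on lithium.

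Among cell type markers on fluoxetine over vehicle, all 6 astrocyte markers were higher (median 0.14), all 5 red blood cell markers higher (0.23), all 5 parvalbumin interneuron markers lower (-0.19) and all 6 oligodendrocyte markers lower (-0.09), none of them called by limma, edgeR or DESeq2. The scores of these lists varied widely between libraries. On fluoxetine the parvalbumin score ran from -0.689 (male 1) to 0.234 (female 2), and in HT vehicle from -0.446 to 0.546. In the same order the astrocyte score ran from -0.142 to 0.346 and from -0.209 to 0.217. The red blood cell score ran from -0.736 to 1.18 and from -0.650 to 0.295. That of oligodendrocytes ran from -0.355 to 0.243 and from -0.513 to 0.545. Choroid plexus (-0.17), microglia (0.004) and endothelial markers (-0.01) were mixed in sign. Of the excitatory neuron genes, Slc17a7 was at -0.05 ± 0.18 (SE) and Camk2a at -0.05 ± 0.19. Their part in the values of the 36 genes was not tested.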
